A study of Mus musculus with 16 samples.

Results

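Mitosis and G2/M genes were followed in bulk RNA-seq of mouse TCF1+CD8+ T cells. The 40 members were taken by gene symbol from the table of counts per gene, which holds 54532 genes, and all 40 were found and passed the filter on low counts in every comparison. They code for the machinery that takes a cell from the end of DNA replication through chromosome separation and cell division. The cells came from C57BL/6J mice. Naive CD8+ T cells of the spleen had been activated repeatedly in culture for 4 days with IL-2 and microbeads. The beads carry antibodies against CD3 and CD28, which engage the T cell receptor complex and a co-stimulatory receptor. All groups were then held for 1 h with or without prostaglandin E2 (PGE2, 100 ng/ml), a lipid mediator that T cells sense through the receptors EP2 and EP4, and for 4 h more with IL-2 at 85 U/ml. Unstimulated untreated cells received IL-2 alone, unstimulated PGE2 cells received PGE2 and IL-2, stimulated untreated cells received IL-2 and fresh anti-CD3/CD28 beads (1 bead per cell), and stimulated PGE2 cells received all of these. Each group held 4 replicates. Whether replicates came from separate mice is not given in the sources used here, so p-values measure the spread between these samples, which may be technical.

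Entry into mitosis is driven by the kinase CDK1, which needs a cyclin partner of the A or B type and is switched on by CDC25 phosphatases. Polo-like and Aurora kinases then build the spindle, kinetochore proteins tie chromosomes to it, and the checkpoint proteins hold the anaphase-promoting complex (APC/C) until every chromosome is attached. The transcripts of these genes rise late in the cell cycle and fall after division, so in a mixed culture their level follows both how many cells are in G2 or M phase and how much each cell makes. In bulk RNA, fewer such cells and less RNA per cell cannot be told apart. All levels here are also relative to the other RNA of the same sample. A fall or rise is thus a change against the other genes, and the RNA content per cell is not given in the sources used here. Activated CD8+ T cells divide very fast, and these genes are among the usual markers of that division.

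Many genes of this kind share a promoter layout, in which CCAAT boxes, bound by the factor NF-Y, lie upstream of a cell cycle genes homology region (CHR), bound by the DREAM and MuvB complexes. The 250 bases before the RefSeq start (build GRCm38.p6) are shown for the cyclins Ccnb1 and Ccnb2, whose levels responded differently to stimulation, for the APC/C activator Cdc20, for the kinase Plk1, and for Pttg1, which moved against the other members and was added after its values were seen. Capitals mark matches on either strand. The CHR was searched as TTTGAA and also in the spelling TTTAAA. The CCAAT box was searched by its letters, and E2F sites were searched as TTCCCGC and also in the spelling TTGGCGC.
Ccnb1, chr13:100786487-100786736, minus strand: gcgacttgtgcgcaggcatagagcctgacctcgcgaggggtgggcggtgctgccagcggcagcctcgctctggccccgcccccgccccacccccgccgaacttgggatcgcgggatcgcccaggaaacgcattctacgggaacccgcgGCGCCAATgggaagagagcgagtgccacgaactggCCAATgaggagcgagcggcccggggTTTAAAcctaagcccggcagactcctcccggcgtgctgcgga
Ccnb2, chr9:70421555-70421804, minus strand: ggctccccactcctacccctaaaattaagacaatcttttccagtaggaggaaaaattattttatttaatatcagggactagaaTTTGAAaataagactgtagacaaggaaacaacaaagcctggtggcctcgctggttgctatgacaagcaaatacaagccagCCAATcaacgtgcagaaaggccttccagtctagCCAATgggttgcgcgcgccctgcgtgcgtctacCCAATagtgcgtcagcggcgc
Cdc20, chr4:118437344-118437593, minus strand: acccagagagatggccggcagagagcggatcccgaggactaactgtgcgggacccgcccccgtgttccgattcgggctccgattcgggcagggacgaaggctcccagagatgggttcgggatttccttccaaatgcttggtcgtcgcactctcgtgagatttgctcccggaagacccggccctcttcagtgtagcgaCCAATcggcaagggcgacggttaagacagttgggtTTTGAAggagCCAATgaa
Plk1, chr7:122159185-122159434, plus strand: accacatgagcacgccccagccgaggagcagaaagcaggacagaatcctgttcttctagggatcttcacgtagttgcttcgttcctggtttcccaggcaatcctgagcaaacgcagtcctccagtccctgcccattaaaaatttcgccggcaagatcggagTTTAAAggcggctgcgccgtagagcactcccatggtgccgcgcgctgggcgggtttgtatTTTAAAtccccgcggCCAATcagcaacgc
Pttg1, chr11:43425982-43426231, minus strand: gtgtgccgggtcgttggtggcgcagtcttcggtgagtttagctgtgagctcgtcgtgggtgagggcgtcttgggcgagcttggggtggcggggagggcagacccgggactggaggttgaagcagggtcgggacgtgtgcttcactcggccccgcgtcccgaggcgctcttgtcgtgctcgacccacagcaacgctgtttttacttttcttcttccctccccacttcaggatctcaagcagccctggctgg
In the Ccnb1 window 1 E2F match (GCGCCAA) runs into the first CCAAT box, so the marks overlap. The Ccnb1 window held 2 CCAAT boxes and 1 CHR, the Ccnb2 window 3 CCAAT boxes and 1 CHR further upstream, and the Cdc20 window 2 CCAAT boxes and 1 CHR. The Plk1 window held 2 CHR spelled TTTAAA and 1 CCAAT box. After the start, beyond the printed letters, Ccnb2 had another CHR (TTTGAA) at bases 4 to 9 and Plk1 a TTTGAA at bases 30 to 35. Windows were matched for 33 members. Over 300 bases (250 before and 50 after the start, both strands), a CHR of either spelling stood in 28 of the 33 (84.8%) against 27.9% of all 27025 windows, and CCAAT in 25 (75.8%) against 37.8%. Both together stood in 23 members (69.7%), against 10.8% of all windows. E2F letters stood in 4 members (12.1%) and in 6.93% of all windows. With stimulation of untreated cells, the 28 members with a CHR had a median log2 fold change of -0.94 (from -1.52 to 0.05) and the 5 without had one of -0.81 (from -1.68 to 0.35). Those 5 were Bub1, Cdc25b, Nuf2, Nusap1 and Pttg1, which include the member that fell most and the one that rose most. The Pttg1 window lies inside the gene as the count annotation places it (43420250 to 43426251, minus strand). Bases upstream of that annotated start were thus not searched, and the lack of a match in Pttg1 holds for this window only. Cdk1, whose change did not pass the test, had both a CHR and CCAAT.

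The libraries held 22678254 to 42950763 counts, with a median of 30211840.5, and mitochondrial genes took 1.43% to 1.77%. Levels are given as CPM (counts scaled to a common library size) with TMM library sizes. Members were well covered, with 210 counts for the lowest (Cdc25c) and 42578 for the highest (Top2a) in any sample. Cd8a, which defines CD8 T cells, had means of 987 CPM in unstimulated untreated, 719 in unstimulated PGE2, 1151 in stimulated untreated and 855 in stimulated PGE2 cells. Tcf7, which encodes TCF1, had means of 1175, 1187, 309 and 407 CPM in the same order. The 8 CD8 T cell markers summed to 4077 to 5099 CPM in unstimulated untreated and 3618 to 4500 CPM in unstimulated PGE2 cells. They summed to 3250 to 3365 CPM in stimulated untreated and 2924 to 3148 CPM in stimulated PGE2 cells, all below the unstimulated sums. The stimulated groups did not overlap. Without PGE2, Cd8a rose with stimulation while the other 7 fell. Cd8b1 went from 700 to 550 CPM and Cd28 from 293 to 164 CPM. Cd4 stayed at or below 1.87 CPM and Ms4a1, a B cell marker, at or below 0.929 CPM, and the myeloid markers S100a8 and S100a9, the NK markers Ncr1 and Klra8 and the erythroid markers Hba-a2, Hbb-bs and Hbb-bt were at 0 in all samples. The 6 markers of B cells summed to 721 to 841 CPM in unstimulated untreated and 246 to 280 CPM in stimulated untreated cells. Ighm, at 216 to 826 CPM, made up most of that sum, and none of the 6 was at 0 in all samples. The 6 NK markers summed to 12.7 to 24.3 CPM in unstimulated untreated and 112 to 178 CPM in stimulated untreated cells, and nearly all of it was Eomes, a transcription factor that CD8 T cells also express. The 5 CD4 markers reached 1316 CPM, mostly Ctla4. The 8 myeloid markers summed to at most 6.57 CPM and the 6 erythroid markers to at most 0.821 CPM. The part of these lists in the results was not tested.

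Per length of transcript, the most abundant member in unstimulated untreated cells was Top2a, the topoisomerase that untangles sister chromatids, at 111 FPKM ± 7.79 (SD, n = 4). Cdc20 (90.9 ± 4.89), Ccnb2 (90.7 ± 3.33) and Mki67, the proliferation marker Ki-67 (85.3 ± 3.35), followed within their spread of each other. Anln, a scaffold of the cleavage furrow, was lowest at 5.73 FPKM ± 0.22. In stimulated untreated cells Cdc20 stood first at 73.9 FPKM ± 0.54, Top2a second at 63.9 ± 6.6 and the APC/C ubiquitin-conjugating enzyme Ube2c next at 61.8 ± 2.67. Cdc25b, an activator of CDK1, moved from rank 6 to rank 16 of the 40, and Cdk1 from rank 21 to rank 12. All 40 together took 7211 CPM ± 209 in unstimulated untreated, 7282 ± 261 in unstimulated PGE2, 4088 ± 479 in stimulated untreated and 4581 ± 669 in stimulated PGE2 cells (SD, n = 4 each). The stimulated groups thus lay below the unstimulated ones without overlap, with a highest stimulated sample of 5423 CPM and a lowest unstimulated one of 6913.

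**Figure D1:**
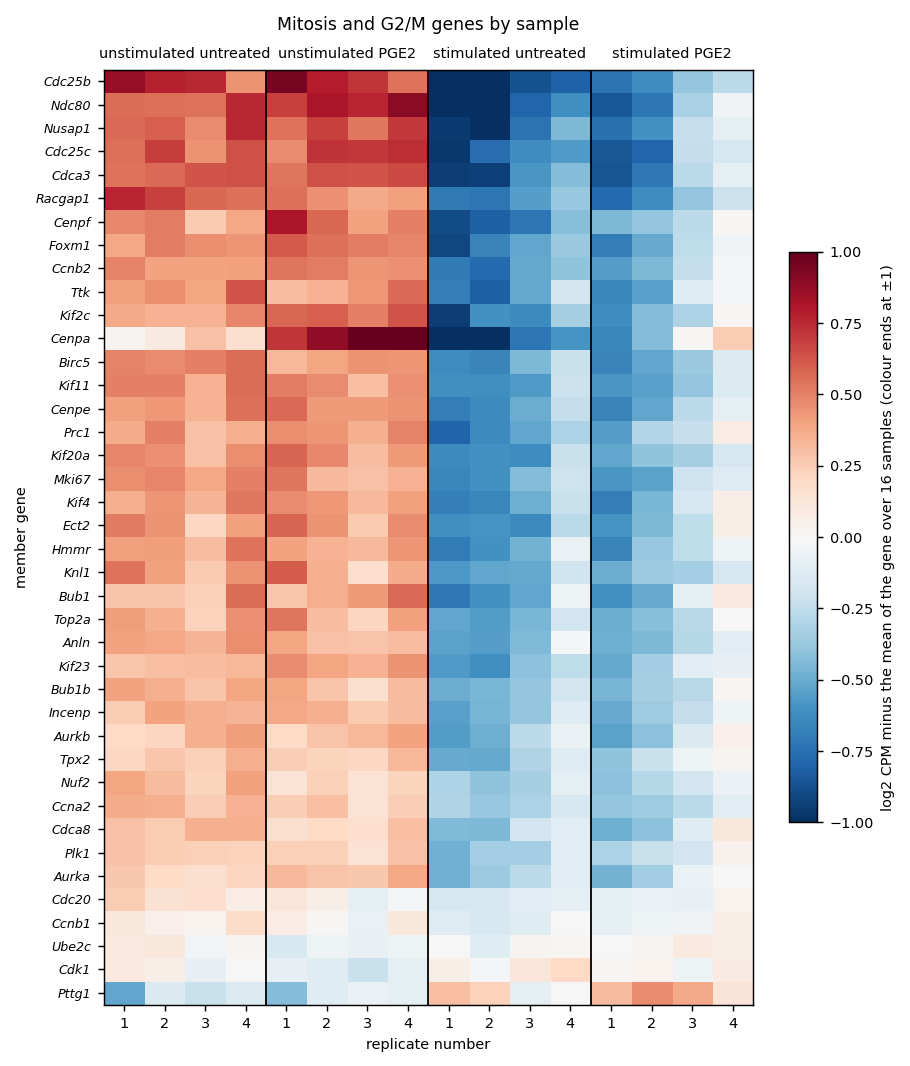
Level of each member (rows, ordered by the change with stimulation of untreated cells) in the 16 samples (columns, by group and replicate number), as log2 CPM minus the gene's mean over all samples. The unstimulated columns are red and the stimulated ones blue for most rows, apart from the lowest rows (Cdc20, Ccnb1, Ube2c, Cdk1 and Pttg1), and replicate 4 of both stimulated groups has 39 of the 40 members above the group mean.

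Within the stimulated groups the members moved together from sample to sample. Replicate 4 had 39 of the 40 members above the group mean in untreated and 39 in PGE2 cells, with a median deviation of 0.25 and 0.29 on the log2 scale. Replicate 1 had 38 below the mean in untreated (median -0.14) and 40 below in PGE2 cells (median -0.24). Replicate 4 was also the shallowest library of each group, at 24536527 and 23236175 counts, and the part of depth was not tested. In unstimulated cells the medians of the samples stayed between -0.07 and 0.04.

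The first comparison asked what bead stimulation did to these genes without PGE2. Most members fell: 37 of 40 passed the test downwards, 1 upwards and 2 in neither direction, where passing means an adjusted p below 0.05 in edgeR's quasi-likelihood test with Benjamini-Hochberg adjustment over 14205 genes. Among all genes tested, 34.8% were lower and 31.7% higher. At a fold of at least 2 as well, 13 members were lower, against 11.7% of all genes. The median log2 fold change of the members was -0.91, that of all genes -0.03. The groups did not overlap in 38 members, and in 61.6% of all genes.

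Of the 7 master regulators of mitotic entry, 6 fell. Cdc25b (chromosome 2, 131186949 to 131198497, plus strand, GRCm38) fell most of all 40. It was at 296, 275, 272 and 220.5 CPM in unstimulated untreated and at 80.0, 74.1, 88.7 and 92.2 CPM in stimulated untreated cells. Every stimulated sample was far under every unstimulated one, with a log2 fold change of -1.68 (SE 0.10, adjusted p by edgeR = 3.3e-08). Its relative Cdc25c went from 22.3, 24.6, 20.8 and 23.7 CPM to 7.81, 9.0, 9.89 and 10.3 CPM (log2 fold change -1.32, SE 0.10, adjusted p by edgeR = 2.0e-07). Foxm1, the transcription factor that drives late cell cycle genes, fell by 1.07 on the log2 scale (SE 0.09). The cyclins differed in size of change. Ccnb2 (cyclin B2; chromosome 9, 70407692 to 70421547, minus strand) went from 153, 143, 143 and 144 CPM to 66.5, 63.2, 76.1 and 81.9 CPM, a log2 fold change of -1.04 (SE 0.08). Ccnb1 (cyclin B1; chromosome 13, 100778650 to 100786570, minus strand) went from 118, 112, 111 and 123 CPM to 99.5, 97.4, 99.8 and 108 CPM, a log2 fold change of -0.21 (SE 0.06, adjusted p by edgeR = 0.0099). Both cyclin B genes thus separated the groups without overlap, Ccnb1 by a small margin. The S and G2 phase cyclin Ccna2 lay between them at -0.63 (SE 0.07).

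Cdk1 itself did not pass. It was at 131, 129, 116 and 123 CPM in unstimulated untreated and at 128, 121, 133 and 140.5 CPM in stimulated untreated cells. These groups overlapped, with a log2 fold change of 0.05 (SE 0.07, adjusted p by edgeR = 0.52), which turned to -0.04 with upper-quartile factors.

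All 5 mitotic kinases and checkpoint genes fell, from Aurka (Aurora A, spindle poles) at -0.52 (SE 0.08) to Ttk (the checkpoint kinase MPS1) at -1.03 (SE 0.12), with Plk1 at -0.58 (SE 0.07). The chromosomal passenger complex, which corrects faulty attachments, fell in 4 of 4 members, from Cdca8 at -0.62 to Birc5 (survivin) at -1.0. All 6 centromere and kinetochore genes fell. Ndc80, which holds microtubules at the kinetochore, went from 94.4, 93.9, 93.5 and 108 CPM to 27.7, 31.3, 37.0 and 41.9 CPM, with no overlap and a log2 fold change of -1.52 (SE 0.11, adjusted p by edgeR = 1.3e-07). Cenpf fell by 1.13 and Cenpa, the histone H3 variant that marks centromeres, by 1.01.

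The 5 genes listed as kinesins, the motors of the spindle, all fell by similar amounts, from -0.77 (Kif23) to -1.03 (Kif2c). Cenpe, a kinesin too, was counted with the kinetochore genes and fell by 0.96. Kif20a shares 29.3% of its exon bases with Cdc23 on the opposite strand. Over all samples Cdc23 had a mean of 57.8 CPM and Kif20a one of 69.0 CPM. Whether strand was used in counting is not given in the sources used here. In all, 7 members share at least 5% with another gene. They include Ube2c (22.8%, Tnnc2 at 0 CPM), Kif4 (15.1%, Pdzd11 at 26.0 CPM), Ccna2 (12.5%, Exosc9 at 41.1 CPM) and Prc1 (11.1%, Rccd1 at 14.5 CPM), also on the opposite strand. Among the 4 spindle proteins, Nusap1 went from 204, 208, 191 and 232 CPM to 70.8, 67.8, 82.4 and 101 CPM (log2 fold change -1.39, SE 0.11, adjusted p by edgeR = 2.6e-07). All 4 fell, Tpx2 least at -0.64. The 3 cytokinesis genes fell too, led by Racgap1, a regulator of the cleavage furrow, at -1.24 (SE 0.08). Top2a, the highest member per length, was at 1088, 1040, 955 and 1119 CPM and then at 567, 553, 594 and 713 CPM, without overlap. It fell by 0.81 on the log2 scale (SE 0.09) and Mki67 by 0.94, the latter from 903 CPM ± 33.3 to 476 CPM ± 68.9 (SD, n = 4).

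The 4 genes tied to the APC/C were mixed. Cdca3, a trigger of mitotic entry, went from 122, 124, 129 and 130.3 CPM to 43.5, 43.7, 56.0 and 61.9 CPM (log2 fold change -1.32, SE 0.10, adjusted p by edgeR = 2.3e-07). Cdc20, the activator that starts anaphase, was at 190.1, 177, 179 and 168 CPM and then at 142, 142, 148 and 149 CPM. That was a smaller fall without overlap, of 0.31 on the log2 scale (SE 0.06, adjusted p by edgeR = 0.00070). Ube2c did not pass, at 177 CPM ± 7.75 and 169 CPM ± 8.22 (log2 fold change -0.08, SE 0.06, adjusted p by edgeR = 0.28).

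Pttg1, which encodes securin, the protein that holds separase inactive, was the member that rose. It was at 11.7, 15.2, 14.4 and 15.3 CPM in unstimulated untreated and at 20.6, 19.7, 15.8 and 16.9 CPM in stimulated untreated cells. The groups did not overlap, with a log2 fold change of 0.35 (SE 0.12, adjusted p by edgeR = 0.023). With upper-quartile factors, which moved the median of all genes from -0.03 to -0.13, it was 0.25 (adjusted p by edgeR = 0.082), and without 1 library (unstimulated untreated replicate 1, stimulated untreated replicate 1 or stimulated untreated replicate 2) it was 0.27, 0.28 and 0.31 and did not pass. Nor did it pass with limma on unfiltered FPKM (0.32).

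With PGE2 present, most members fell on stimulation as well. The test was passed by 35 members downwards and 2 upwards, beside 31.7% and 32.5% of all 14507 genes tested. A fold of at least 2 was reached downwards by 6 members (9.44% of all genes), and 38 members did not overlap between the groups (60.2% of all genes). The median was -0.69 for the members and 0.00 for all genes. The leading falls were Cdc25b, Ndc80, Cdc25c, Cenpa and Cdca3. Cdc25b went from 313, 278, 266 and 236 CPM in unstimulated PGE2 cells to 96.9, 105, 124 and 135 CPM in stimulated PGE2 cells (log2 fold change -1.23, SE 0.11, adjusted p by edgeR = 4.5e-06). Ndc80 went from 103, 113, 109 and 119.7 CPM to 35.5, 38.8, 51.2 and 62.4 CPM (log2 fold change -1.23, SE 0.15). Stimulated samples were below all unstimulated ones for both genes, and so they were for Cenpa (log2 fold change -1.09, SE 0.17), which went from 381, 429, 497 and 469 CPM to 148, 172, 234 and 277 CPM. Cdc25c went from 21.1, 25.1, 24.9 and 25.4 CPM to 8.40, 8.79, 12.9 and 13.5 CPM (-1.14, SE 0.15) and Cdca3 from 121, 130.5, 129 and 133 CPM to 46.0, 51.0, 69.3 and 78.9 CPM (-1.06, SE 0.14). Neither gene overlapped between the groups.

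Pttg1 rose again, from 12.4, 15.5, 16 and 15.7 CPM to 20.9, 23.4, 21.8 and 18.3 CPM, a log2 fold change of 0.51 (SE 0.12, adjusted p by edgeR = 0.0027) that passed in 18 of 18 alternatives. Cdk1 went from 116, 113, 105 and 115 CPM to 124, 126, 118 and 129.9 CPM. The groups did not overlap, and the log2 fold change of 0.16 (SE 0.06, adjusted p by edgeR = 0.037) passed in 2 of 18 alternatives, and without any single library it was between 0.09 and 0.18 and did not pass. Cdc20 (-0.06, SE 0.06), Ccnb1 (-0.05, SE 0.06) and Ube2c (0.14, SE 0.06) did not pass.

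**Figure D2:**
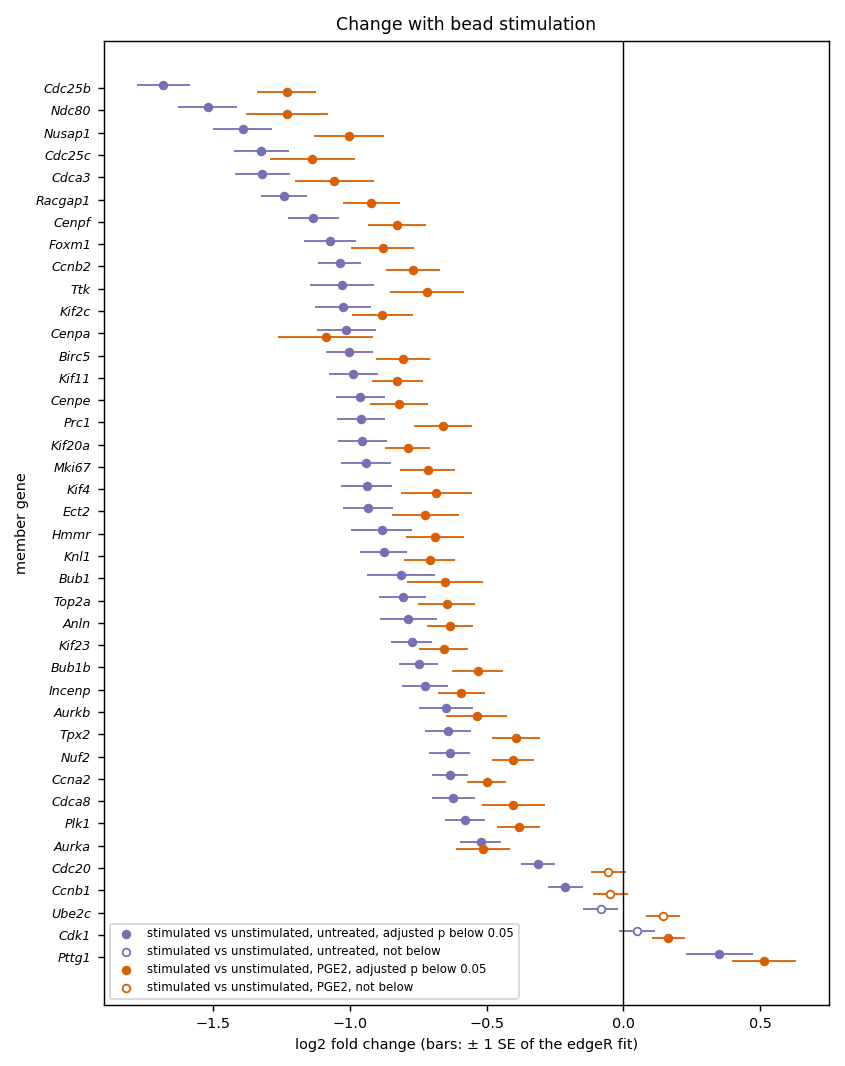
Log2 fold change of each member (rows) with bead stimulation in untreated and in PGE2 cells, from the edgeR fits of 8 samples each, with bars of 1 SE and filled points where the adjusted p was below 0.05. Nearly all points lie left of 0, down to -1.68 for Cdc25b, and Pttg1 lies furthest right at 0.35 and 0.51.

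Other genes that act in mitosis were taken from a list of 68 that holds no member. Without PGE2, 59 fell and 3 rose, with a median log2 fold change of -0.73. Depdc1b, a regulator of adhesion before mitosis, fell by 2.35 on the log2 scale from 45.8 CPM ± 6.96 to 9.11 CPM ± 1.28, Mastl (the kinase Greatwall) by 1.67, and Cenpl, a kinetochore protein, by 1.42. With PGE2, 55 fell and 2 rose. Of the 16 subunits of condensin and cohesin, the rings that fold and hold chromatids, 13 fell without PGE2 and 13 with it. Smc4 went from 958 CPM ± 61.6 to 357 CPM ± 46.4 in untreated cells. The 17 genes of APC/C subunits and regulators were mixed, with 10 lower and 4 higher without PGE2 and 8 lower and 4 higher with it. Anapc2, part of the catalytic core, led the falls at -0.77 and -0.70. Of 51 DNA replication genes, which act in S phase before these members, 39 fell and 4 rose without PGE2, with a median of -0.47. Beside the counts of all these lists, 34.8% of all genes were lower and 31.7% higher without PGE2, and 31.7% lower and 32.5% higher with it.

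**Figure D3:**
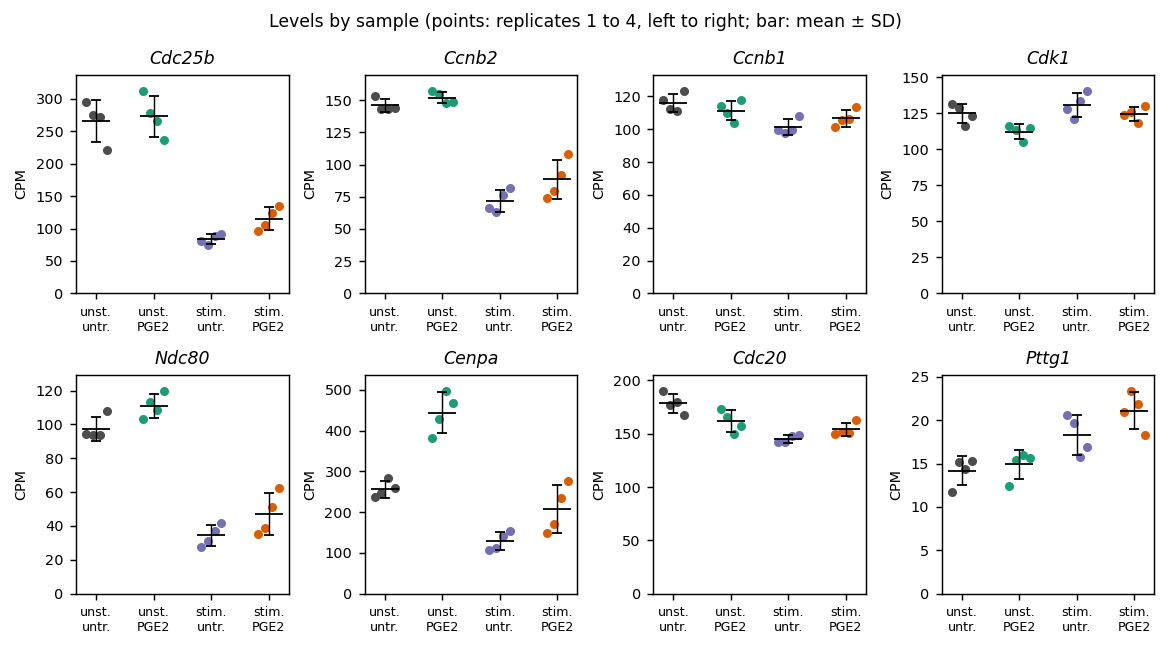
Levels of 8 members in CPM by group (points, replicates 1 to 4 from left to right; bars, mean ± SD, n = 4; axes start at 0). Cdc25b, Ccnb2 and Ndc80 are far lower in both stimulated groups, Ccnb1, Cdk1 and Cdc20 change little, Pttg1 is higher after stimulation, and Cenpa is highest in unstimulated PGE2 cells at 444 CPM ± 50.3.

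The next comparison asked what PGE2 did in stimulated cells. In the fit without a replicate term 1 member passed upwards and none downwards, beside 6.04% and 3.8% of all 13922 genes tested, and 7 of 40 members had an unadjusted p below 0.05, against 3761 of all 13922 genes. That count of members was 3 to 6 without 1 library, but 15 without stimulated untreated replicate 4 and 14 without stimulated PGE2 replicate 1. The count over all genes at this cut is not given here for those fits, so these counts are not read as particular to the members. Cdc25b rose from 80.0, 74.1, 88.7 and 92.2 CPM to 96.9, 105, 124 and 135 CPM. Every PGE2 sample was above every untreated one, with a log2 fold change of 0.47 (SE 0.11, adjusted p by edgeR = 0.031). It passed in 17 of 26 alternatives. Without stimulated untreated replicate 1, 2 or 3 it was 0.46, 0.41 and 0.50, without stimulated PGE2 replicate 3 or 4 it was 0.43 and 0.38, and none of these passed. In all, 2 members did not overlap between the groups (17.9% of all genes). Cenpa, at 107, 113, 141 and 155 CPM and then 148, 172, 234 and 277 CPM, had the largest value, 0.69 (SE 0.20, adjusted p by edgeR = 0.052), with 1 PGE2 sample inside the untreated range. Cenpf was at 0.45 (SE 0.13, adjusted p by edgeR = 0.051). Cenpa and Cenpf passed as well with DESeq2, at adjusted p = 0.0058 and 0.013. The sum of the CD4 markers (mostly Ctla4) moved between these groups as well, from 390 to 781 CPM up to 897 to 1316, without overlap. The sums of B cell and NK markers overlapped. The part of these markers in the results was not tested.

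Small differences ran in one direction across the list. The log2 fold change was above 0 in 39 of the 40 members, all but Cdk1 (-0.06, SE 0.07), with a median of 0.15. That median was 0.070 without stimulated PGE2 replicate 4, 0.24 without stimulated untreated replicate 4 and 0.23 without stimulated PGE2 replicate 1. Over all genes tested, 49.2% were above 0, with a median of -0.01. The SE of a member was 0.13 at the median, about as large as the median change, and samples of the same group moved together as described above.

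Same-numbered samples tended to deviate together in these 2 groups, at correlations of 0.42, 0.19, 0.30 and 0.41 for numbers 1 to 4. Number 2 correlated slightly better with another number (0.21). Differently numbered samples reached 0.25. The labels do not say that a number marks a pair, so the pairing was inferred from these same data. Counts and p-values of a fit that uses it hold only if the numbers mark pairs. The fit with the replicate number as a block gave a different count. There 22 members passed upwards and none downwards, beside 19.1% and 20.7% of all genes. Cenpa led with a log2 fold change of 0.67 (SE 0.06, adjusted p by edgeR = 1.2e-05), and its PGE2 sample was higher by 0.47, 0.60, 0.73 and 0.84 in the pairs 1 to 4. Cenpf followed at 0.45 (SE 0.04), with 0.44, 0.42, 0.46 and 0.45 in the pairs. Cdc25b was at 0.46 (SE 0.05), with 0.28, 0.50, 0.48 and 0.55. All pairs of these genes pointed up. Ndc80 (0.44), Nusap1 (0.38), Prc1 (0.33), Kif2c (0.30), Ccnb2 (0.30), Foxm1 (0.25) and Cdca3 (0.25) came next, and Plk1 was at 0.15 (SE 0.04). Aurka, Aurkb, Birc5, Incenp, Ccnb1 and Cdc20 were among the 18 that did not pass. Of the 22, 21 were higher in all 4 pairs and Kif4 in 3. Over the whole list, 31 of 40 members were higher in all 4 pairs and none lower in all 4, while 25.3% of all genes were higher and 29.0% lower in all 4. The median member difference was 0.04, 0.14, 0.23 and 0.16 in the pairs 1 to 4. With 1 number left out of both groups and the block kept, 12 to 24 members passed, lowest without number 3 (12) and highest without number 1 (24). Over all genes, 3844 of 13880 passed without number 3 and 5020 of 13909 without number 1, in either direction. None of the 22 reached a fold of 2.

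**Figure D4:**
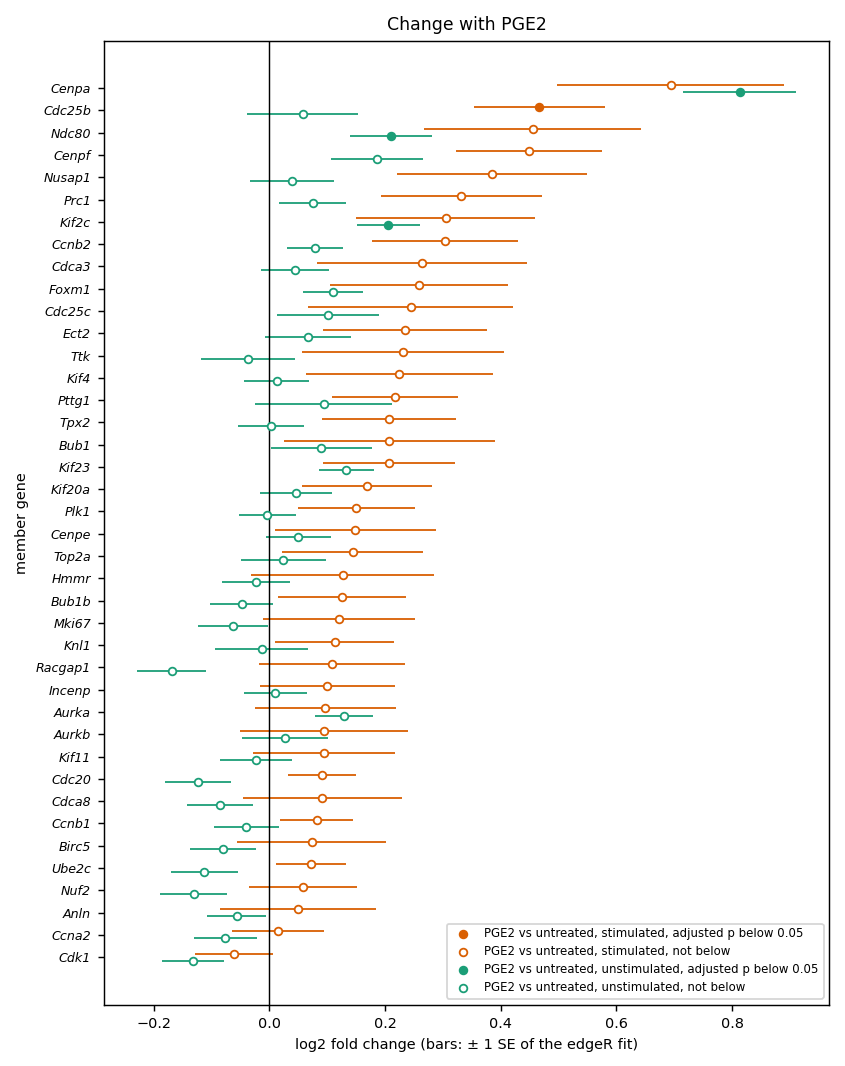
Log2 fold change of each member (rows) with PGE2 in stimulated and in unstimulated cells, from the edgeR fits without a replicate term, with bars of 1 SE and filled points where the adjusted p was below 0.05. In stimulated cells 39 of 40 points lie right of 0 and Cdc25b is filled, and in unstimulated cells the points scatter around 0 apart from Cenpa at 0.81.

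In unstimulated cells PGE2 moved few members. Without a replicate term 3 rose and none fell, beside 12.9% and 15.5% of all 14505 genes tested, and 5 members did not overlap between the groups (28.9% of all genes). The median was 0.02, with 23 of 40 above 0, and the median of all genes was 0.00. Marker sums of other cell types moved between these groups too, without overlap. B cell markers (mostly Ighm) went from 721 to 841 CPM down to 504 to 650. NK markers (mostly Eomes) went from 12.7 to 24.3 CPM down to 5.69 to 10.9, and CD4 markers (mostly Ctla4) from 729 to 912 CPM up to 1147 to 1261. Their part in these results was not tested. Cenpa stood out within the list. It was at 236, 247, 285 and 259 CPM in untreated and at 381, 429, 497 and 469 CPM in PGE2 cells. No sample overlapped, with a log2 fold change of 0.81 (SE 0.10, adjusted p by edgeR = 0.00012) that passed in 26 of 26 alternatives. Kif2c, a kinesin that takes microtubules apart at centromeres, went from 68.7, 67.0, 67.0 and 74.1 CPM to 78.5, 79.8, 74.8 and 81.6 CPM (log2 fold change 0.21, SE 0.05, adjusted p by edgeR = 0.016), again without overlap, and passed in 24 of 26 alternatives. Ndc80 went from 94.4, 93.9, 93.5 and 108 CPM to 103, 113, 109 and 119.7 CPM, where the groups overlapped (log2 fold change 0.21, SE 0.07, adjusted p by edgeR = 0.045), and passed in 14 of 26 alternatives. Without any 1 of unstimulated untreated replicates 1 to 3 or unstimulated PGE2 replicates 2 to 4 it was between 0.17 and 0.22 and did not pass. Nuf2, the partner of Ndc80 in its complex, was at -0.13 (SE 0.06, adjusted p by edgeR = 0.12).

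With the replicate block 12 members passed, 7 upwards and 5 downwards, beside 23.6% and 24.2% of all genes. Cenpa, Kif2c, Ndc80, Cenpf, Kif23, Aurka and Foxm1 rose, by 0.11 (Foxm1) to 0.81 (Cenpa) on the log2 scale. Racgap1 (-0.17), Cdk1 (-0.13), Nuf2 (-0.13), Cdc20 (-0.12) and Ube2c (-0.11) fell. In the list 10 members were higher and 11 lower in all 4 pairs, shares close to the 25.7% and 30.6% of all genes. With 1 number left out of both groups and the block kept, 10 to 12 members passed. Over all genes, 6270 of 14435 passed without number 4 (10 members) and 6425 of 14763 without number 1 (12 members).

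**Figure D5:**
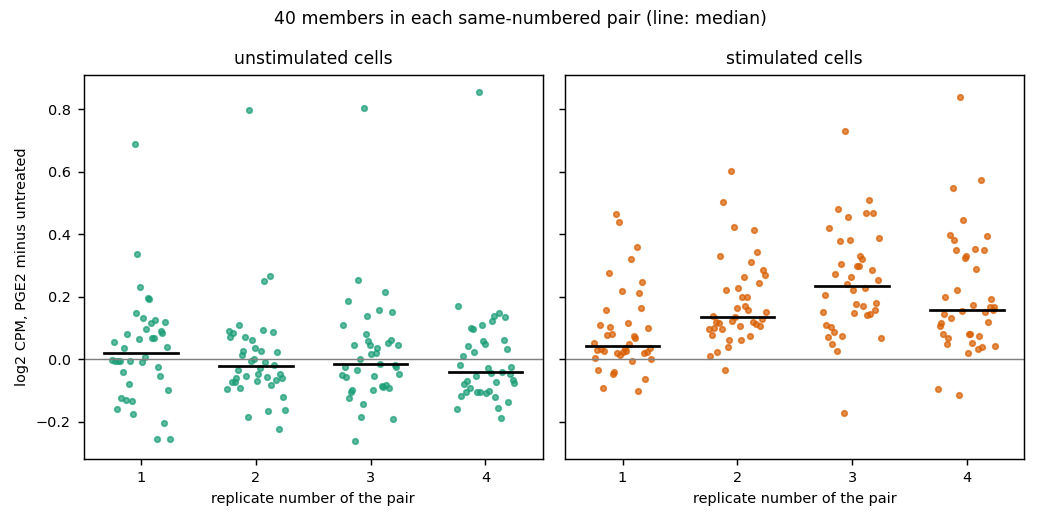
Difference in log2 CPM between the PGE2 and the untreated sample of the same replicate number for the 40 members (points), in unstimulated and stimulated cells, with the median as a line. In stimulated cells the medians are 0.04, 0.14, 0.23 and 0.16 and most points lie above 0, whereas in unstimulated cells the medians lie between -0.04 and 0.02.

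The interaction asked whether stimulation changed the members differently with PGE2 present. None of the 40 passed in edgeR, beside 0.749% of all 15096 genes, and none passed with DESeq2 or limma. In edgeR 3 had an unadjusted p below 0.05, namely Cdc25b (0.42, SE 0.16), Cdc20 (0.23, SE 0.09) and Ube2c (0.20, SE 0.08), with adjusted p of 0.37, 0.34 and 0.41. Over all genes 1415 of 15096 had an unadjusted p below 0.05, a similar share. The member count was 14 without stimulated untreated replicate 4, 13 without stimulated PGE2 replicate 1, 5 without stimulated PGE2 replicate 2 and 2 to 4 without any other library. For those fits too the count over all genes at this cut is not given here. The interaction was above 0 in 38 of 40 members and in 61.4% of all genes, with a median of 0.17 and a median of 0.05 over all genes. Without 1 library the member median ranged from 0.06 (stimulated PGE2 replicate 4) to 0.25 (stimulated untreated replicate 4, or stimulated PGE2 replicate 1), and it was 0.10 without stimulated untreated replicate 1. The SE of a member was 0.15 at the median, so differences of about the median size were not detectable here. The 4 comparisons share groups, so their values are not independent of each other.

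For the related lists PGE2 gave the following counts in the fits without a replicate term. In stimulated cells 3 of the 68 other mitotic genes rose and 1 fell, beside 6.04% and 3.8% of all genes. Cenpl rose most, from 13.3 CPM ± 2.64 to 21.7 CPM ± 5.22 (log2 fold change 0.72, SE 0.18, adjusted p by edgeR = 0.038), followed by Depdc1b (0.47) and Fam83d (0.42), a spindle protein. In unstimulated cells 4 rose, among them Cenpl (0.31) and Cep55 (0.29), which acts in the final cut between daughter cells, and 6 fell, among them Wee1 (-0.32), the kinase that holds CDK1 inactive, beside 12.9% and 15.5% of all genes. Condensin and cohesin had 3 genes higher in unstimulated cells, Smc4 first at 0.33, and in stimulated cells none passed in edgeR. Of these 16 genes, 3 had an unadjusted p below 0.05 in stimulated cells, against 3761 of all 13922 genes. Anapc2 rose in both states, by 0.42 and 0.41. Among the 51 DNA replication genes, 11 fell and none rose in stimulated and 23 fell and none rose in unstimulated cells. Mcm2, part of the replicative helicase, went from 216 CPM ± 4.17 to 151 CPM ± 6.36 in stimulated cells (log2 fold change -0.51, SE 0.06, adjusted p by edgeR = 0.00077). The medians of that list were -0.18 and -0.21, against 0.15 and 0.02 for the members, and the difference between the lists was not tested.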

How the data were processed

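Bulk RNA-seq of 16 samples in 4 groups was used. Per the labels and the study's methods, the authors made poly(A) libraries (NEBNext Ultra), sequenced them in pairs on a NovaSeq, aligned reads to GRCm38 with HISAT2 2.0.5 and counted them per gene with featureCounts 1.5.0-p3. The deposited counts are whole reads per gene without normalization. The deposited FPKM values are the authors' counts scaled by gene length and depth. Their own differential test used DESeq2 1.20.0. The annotation release and use of strand are not given in the sources used here.

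Counts were tested with edgeR 4.0.16 in R 4.3.3 (filterByExpr with a minimum count of 10, TMM, glmQLFit and glmQLFTest, two-sided, Benjamini-Hochberg over all genes tested, adjusted p threshold 0.05), in pairwise fits of 8 samples and 1 interaction fit of 16. The procedure was tested on simulated data. The log2 CPM values used a prior count of 2. Alternatives used DESeq2 1.42.0, limma 3.58.1 on log2(FPKM + 1) or log2(FPKM + 0.1) with a mean FPKM of at least 1 or no filter, other scaling (RLE, upper-quartile), other filters (none, or 10 counts as the minimum in each sample), a fold of 2, 1 fit of all 16 samples, the replicate block, and leaving out each replicate. Leaving out a number from both groups was chosen after seeing the data, as were the paralogue ratios.

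The replicate numbers come from the labels. Deviations from the group means correlated between same-numbered samples at 0.42, 0.19, 0.30 and 0.41 (numbers 1 to 4) for PGE2 in stimulated cells, at 0.44, 0.14, 0.29 and 0.43 in unstimulated cells, and at 0.36, 0.11, 0.27 and 0.22 for stimulation without PGE2. All exceed 0.1, and these numbers were read as pairs, but this cut does not separate pairs from other samples. For PGE2 in stimulated cells the best differently numbered sample reached 0.25, 0.21, 0.18 and 0.25 for numbers 1 to 4, above the same number for number 2. In unstimulated cells and for stimulation without PGE2 the same number correlated best throughout. The pairing was inferred from the data that the block fit tests, so counts with the block hold only if the numbers mark pairs.

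The members and gene lists were chosen with earlier results of these data known. All members are named or counted. From each other list up to 3 genes with the largest change past the adjusted p are named, and values by sample are given for up to 5 members in each direction per comparison. Ccnb1, Ccnb2, Cdk1, Cdc20 and Cenpa in stimulated cells were added by sample after their values were seen. Promoter letters come from RefSeq windows, 1 per gene. The level of another marker gene is not reported here.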

Additional observations from a re-analysis of the deposited data

Results flagged for a closer look

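In 13 of 160 sets of 4 replicates (40 members in 4 groups) 1 sample lay far from the other 3 by Dixon's criterion, which chance meets in about 1 in 20 sets. Values are CPM.

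In unstimulated untreated cells, replicate 4 was the highest for Bub1 (120.3, others 96.4 to 99.6) and Ndc80 (108, others 93.5 to 94.4). Replicate 1 was the highest for Ccnb2 (153, others 143 to 144). Replicate 3 was the lowest for Ccna2 (234, others 251 to 254) and Kif20a (80.4, others 90.2 to 92.1).

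In unstimulated PGE2 cells, replicate 1 was the lowest for Cdc25c (21.1, others 24.9 to 25.4) and Pttg1 (12.4, others 15.5 to 16) and the highest for Cenpe (162, others 148 to 149.9).

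In stimulated untreated cells, replicate 4 was the highest for Knl1 (50.6, others 39.1 to 40.9), Kif11 (183, others 139 to 143), Kif20a (56.4, others 42.3 to 43.3) and Ect2 (42.7, others 33.1 to 34.2). In stimulated PGE2 cells, replicate 4 was the highest for Cdc20 (163, others 149.8 to 152).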

How the results depend on the processing

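The counts of members that passed for stimulation moved little. Without PGE2, 38 passed, with 37 to 38 when a replicate was left out and 13 at a fold of 2. With PGE2, 37 passed, with 36 when a replicate was left out and 6 at a fold of 2. No value of a member that passed changed sign, and 37 members without and 36 with PGE2 passed in every alternative. Upper-quartile factors moved the median of all genes to -0.13 in both comparisons. Ube2c then fell without PGE2 (log2 fold change -0.18), and Ccnb1 (-0.17) and Cdc20 (-0.18) fell with PGE2. The cause was not tested.

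The PGE2 counts were less stable. In stimulated cells 1 member passed, against 3 with DESeq2, RLE factors, no filter or 1 fit of all 16 samples, 0 with limma on unfiltered FPKM, 0 at a fold of 2 and 22 with the replicate block. Leaving out replicates gave 0 to 24 members. Without 1 library the count was 0 (stimulated untreated replicate 1, 2 or 3, or stimulated PGE2 replicate 3 or 4), 3 (stimulated untreated replicate 4) or 5 (stimulated PGE2 replicate 1). Over all genes, 630 to 843 passed in the fits with 0, 1323 of 14210 in that with 3 and 1854 of 14032 in that with 5. Without number 1, 2, 3 or 4 in both groups, 2, 0, 0 and 1 passed with no block and 24, 17, 12 and 21 with it. In the same order 1028, 321, 314 and 915 of all genes passed with no block and 5020, 4596, 3844 and 5090 with it. These fits tested 13880 to 14126 genes. In unstimulated cells 3 members passed, against 5 with at least 10 counts in every sample, 1 in 1 fit of all 16 samples, 0 at a fold of 2 and 12 with the replicate block. Leaving out replicates gave 1 to 12, with 1 when number 2 was left out of both groups with no block, and 12, 11, 11 and 10 with the block and without number 1, 2, 3 or 4. Over all genes, 2123 of 14544 passed in the fit with 1. With the block, 6425, 5869, 6117 and 6270 of 14334 to 14763 genes passed, in the same order. The cause was not tested. The interaction count was 0 in every alternative.

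With the replicate block, the pairing changed no count for stimulation (38 and 37) or the interaction (0). For stimulation with PGE2, same-numbered samples correlated at 0.20, 0.044, 0.28 and 0.091, and number 2 correlated better with another number. The lowest count of a member in any sample was 210.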

Other observations

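The DREAM and MuvB complexes bind CHR promoters, and the list of their 12 subunits was mixed. With stimulation, 3 rose and 7 fell without PGE2 and 4 rose and 6 fell with it (edgeR adjusted p), beside 31.7% higher and 34.8% lower over all genes without PGE2 and 32.5% and 31.7% with it. Rbl2, which encodes the pocket protein p130, went from 78.5 CPM ± 4.26 to 19.5 CPM ± 5.16 without PGE2 (n = 4, log2 fold change -2.04), and E2f5 from 8.05 CPM ± 0.66 to 26.2 CPM ± 3.66 (1.69). Tfdp2, a partner of E2F factors, fell by 1.78 on the log2 scale. With PGE2 in unstimulated cells 2 rose and 2 fell, close to the 12.9% and 15.5% of all genes, and Tfdp1 went from 195 CPM ± 8.39 to 116 CPM ± 8.90 (log2 fold change -0.73) while Tfdp2 rose by 0.56. In stimulated cells none passed in edgeR, beside 6.04% higher and 3.8% lower over all genes. There 4 of the 12 had an unadjusted p below 0.05, against 3761 of all 13922 genes.

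The log2 ratio of Ccnb1 to Ccnb2 within a sample was -0.33 ± 0.07 in unstimulated untreated and 0.50 ± 0.12 in stimulated untreated cells (SD, n = 4), and -0.45 ± 0.08 and 0.28 ± 0.18 with PGE2. The exact two-sided permutation p was 0.029 for both comparisons, the smallest that 4 against 4 samples allow, and 0.17 after adjustment over 12 ratio tests, which also covered Cdc25b to Cdc25c and Aurka to Aurkb. At this size the adjustment could hardly be passed, so it says little either way. These pairs were chosen after their values were seen.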
